A study of Homo sapiens with 24 samples.

Results

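The 48 genes described here encode the DNA replication machinery and other proteins that a cell makes for S phase. They were chosen as a named list, by function, and each was read from the array probe set, called a transcript cluster, that the platform annotation assigns to that gene symbol alone. All 48 had such a cluster and were measured in both experiments, out of 18417 genes with a symbol. Where a gene had several clusters (UHRF1 and CLSPN), the cluster with the highest mean over all arrays was used. All values come from L1236, an established cell line derived from the B lineage tumor cells of a Hodgkin lymphoma, and describe that line alone. In experiment 1, 6 control arrays of non-targeting siRNA (control 1) were set against 6 arrays of p50/RelA knockdown (KD), in which siRNAs were directed at NFKB1, at 1 µM for 3 days, and RELA, at 500 nM for 2 days. In experiment 2, 6 further arrays of non-targeting siRNA (control 2) were set against 6 arrays of p52/RelB KD, with siRNAs against NFKB2, at 500 nM for 2 days, and RELB, at 1 µM for 3 days. All cells were taken 1 day after the siRNA treatment ended, and each group consisted of 3 replicates with 2 siRNA sequences in each replicate. The study describes the 3 replicates as biological, and the samples of a replicate received different siRNAs. No source used here says whether they came from 1 starting culture, so the p-values measure the spread between arrays.

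DNA is copied once per cell cycle. In G1 phase the origin recognition complex, CDC6 and CDT1 load the MCM helicase onto origins, and at the start of S phase CDC45 and the GINS complex turn it into the active helicase. Primase with DNA polymerase alpha starts each strand, the clamp loader RFC places the sliding clamp PCNA, and polymerases delta and epsilon extend the strands while RPA covers single-stranded DNA. E2F transcription factors switch on most of these genes together as cells pass from G1 into S phase, and cyclin E drives that passage. NF-κB is constitutively active in Hodgkin cells, through canonical dimers such as p50/RelA and non-canonical dimers such as p52/RelB. The comparisons asked whether mRNA levels of the replication genes differed when either pair of subunits was depleted. The arrays measured bulk RNA, in which a change in the share of cells in S phase and a change in mRNA per cell cannot be told apart.

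The siRNAs define the perturbation and are shown as listed by the study, 5′ to 3′, in lower case. The sources used here do not say which of each pair was sequence 1 in the labels.
NFKB1: ccaaaguauaaagauauua
NFKB1: ggcucauguuuacagcuuu
RELA: cuuccaaguuccuauagaa
RELA: ggauugaggagaaacguaa
NFKB2: ucauugagcagauagucua
NFKB2: cugucaagaucuguaacua
RELB: guaggauucggaaaagauu
RELB: uggagaucaucgacgagua

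The siRNAs reduced NFKB1 mRNA on the arrays to 26.5% and RELA mRNA to 38.1% of control 1. NFKB2 mRNA fell to 39.4% of control 2, but RELB mRNA only to 82.0%. The study reports that it tuned siRNA doses and times for efficient depletion of each subunit, and shows the protein depletion by Western blot. The array values do not measure protein. Untargeted subunits differed as well. After p52/RelB KD, REL lay at 67.5% and NFKB1 at 110.6% of control 2 (limma adjusted p = 0.000308 and 0.0374). RELA lay at 104.3% (limma adjusted p = 0.48). After p50/RelA KD, NFKB2 lay at 87.8% of control 1 (limma adjusted p = 0.0457). REL and RELB lay at 93.2% and 99.4% there (limma adjusted p = 0.30 and 0.97). All 8 Hodgkin cell markers examined had a log2 value of 6 or more in control 1, from 6.67 for TRAF1 to 12.4 for IRF4. Of 6 B cell markers 5 had a log2 value of 6 or more in control 1, up to 10.9 for PAX5, and MS4A1 had 4.38. The same level was reached by 3 of 7 T and NK cell markers, among them CD4 (9.73) but not TRAT1 (4.32), and by 3 of 5 myeloid markers, among them CSF1R (7.78) but not LYZ (3.98). It was also reached by 5 of 7 fibroblast, endothelial and epithelial markers, among them PECAM1 (12.3). Array medians were 6.94 to 6.99 in experiment 1 and 7.39 to 7.51 in experiment 2, so levels were compared only within an experiment. The p52/RelB KD array of replicate 3, sequence 2 stood apart, with a mean correlation of 0.986 with its own group where all other arrays had 0.993 or more. For p52/RelB KD, the members that passed without this array but not with all arrays are named below, with single values or a range.

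Depletion of p50/RelA left the replication genes close to control. The mean log2 value of the 48 genes on an array ranged from 9.80 to 10.00 (median 9.89) in control 1 and from 9.86 to 9.95 (median 9.89) after p50/RelA KD, so the groups overlapped. Of the 48 genes, 0 passed the limma test, which required a Benjamini-Hochberg adjusted p below 0.05 and a change of 10% or more (0.14 in log2 units). Of all 14672 clusters tested, 1.07% passed. At an unadjusted p below 0.05, 1 member passed against 10.5% of all clusters, and the methods' t-test also gave 0 members. The median member difference was 0.02, beside 0.00 for all clusters. For 30 of the 48 genes the 95% interval of the difference lay inside 0.14 in both directions, and over all members the intervals reached from -0.26 (CDC6) to 0.22 (GINS4). In 0 of the 48 genes were the KD arrays all above or all below the control arrays, which was the case for 1.11% of all clusters. Pairs were formed of a KD and a control array of the same replicate and siRNA sequence number. A single gene, the primase subunit PRIM1, was higher in all 6 pairs, and 0 were lower in all 6, against 2.87% and 3.52% of all clusters.

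**Figure D1:**
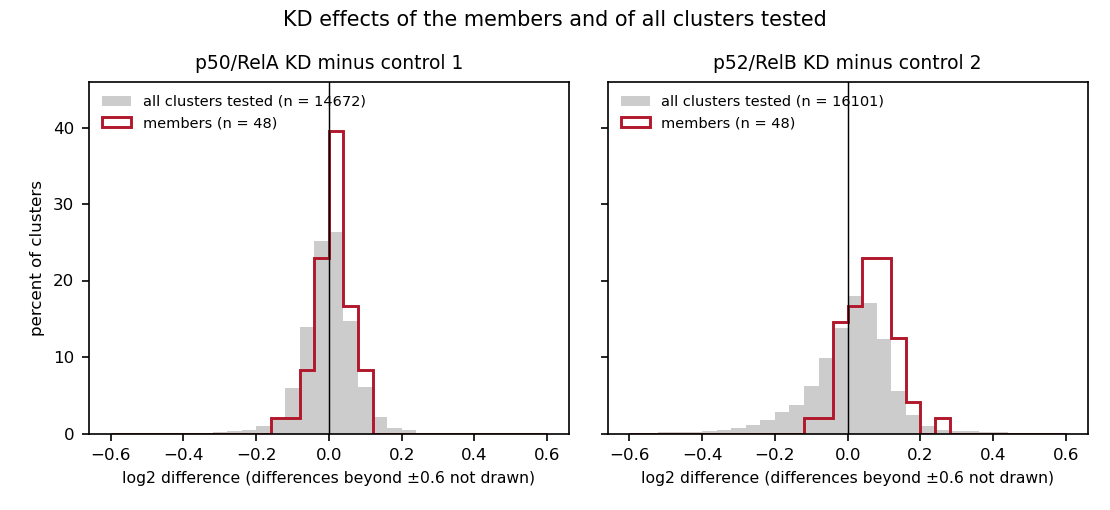
Distribution of the log2 difference (KD minus control, horizontal axis) over the 48 members (red outline) and all clusters tested (grey), as a percentage of each set (vertical axis). The members centre on 0.02 after p50/RelA KD and lie to the right of all clusters after p52/RelB KD, with medians of 0.06 and 0.02.

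By role, the 6 helicase subunits MCM2 to MCM7 differed from control 1 by 0.00 to 0.04 on the log2 scale. MCM2 ranged from 10.38 to 10.60 (median 10.42) in control 1 and from 10.46 to 10.52 (median 10.48) after p50/RelA KD, a difference of 0.04 ± 0.04 (SE, n = 6 per group, limma adjusted p = 0.81). Its KD values lay inside the range of the controls. The genes of origin licensing and firing, the largest role group with 9 genes, had the widest range of differences, -0.13 to 0.09. GINS1, a subunit of the GINS complex, ranged from 10.35 to 10.57 (median 10.46) in control 1 and from 10.20 to 10.55 (median 10.29) after KD. It was lower in 5 of 6 pairs, and with a difference of -0.13 ± 0.04 it had the smallest adjusted p of the members, 0.19. The groups still overlapped. Of the other GINS subunits GINS3 had -0.05, and GINS2 and GINS4 had positive differences of 0.03 and 0.09.

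CDC6, the loader of the MCM helicase, ranged from 10.38 to 10.69 (median 10.55) in control 1 and from 10.17 to 10.57 (median 10.47) after p50/RelA KD, with a difference of -0.12 ± 0.07 (adjusted p = 0.60). Its difference was 0.07 in replicate 1, -0.19 in replicate 2 and -0.22 in replicate 3. The replicates thus disagreed in sign. CDT1, its partner in licensing, had a difference of 0.00 ± 0.05. Of the clamp loader, the large subunit RFC1 had the highest difference of all members, 0.10 ± 0.05 (adjusted p = 0.55), with control values of 9.37 to 9.76 and KD values of 9.58 to 9.85. RFC2 had -0.06, RFC3 -0.01, RFC4 0.02, RFC5 0.03 and the clamp PCNA -0.03 ± 0.04. Clamp and loader therefore had 3 positive and 3 negative differences.

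The polymerase and primase genes differed by -0.01 to 0.08. RPA2, a subunit of the single-strand binding protein, had a difference of -0.07 ± 0.08 with a control range of 8.07 to 8.64, and RPA1 and RPA3 had -0.01 and 0.02. FEN1 and LIG1, which trim and seal Okazaki fragments, had -0.03 and 0.02. In nucleotide supply, the ribonucleotide reductase subunit RRM2 had -0.02 ± 0.04 and thymidylate synthase TYMS 0.02 ± 0.04, within a range of -0.02 to 0.05 for the 5 genes. E2F1, E2F2, CCNE1 and CCNE2 had 0.00, 0.01, 0.05 and 0.03. SLBP, which binds the stem-loop of histone mRNAs, had -0.01 ± 0.03 and the histone chaperone subunit CHAF1A -0.02 ± 0.05. CLSPN, which encodes the fork protein Claspin, had 0.08 ± 0.06. None of these differences passed the test.

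After p52/RelB KD the members lay slightly higher. The array mean of the 48 genes ranged from 9.89 to 10.07 (median 9.94) in control 2 and from 9.99 to 10.07 (median 10.04) after KD, with overlap. A positive difference was found for 39 of the 48 genes, beside 58.1% of all clusters. The member median was 0.06, beside 0.02 over all 16101 clusters tested. CDC45, E2F1, POLA2 and FEN1 rose and 0 members fell. This made 4 of 48 genes, or 8.33%, near the 9.68% of all clusters that passed in either direction. By direction, 8.33% of members rose beside 3.93% of all clusters, and 0 fell beside 5.75%. At an unadjusted p below 0.05 there were 14 members, 13 of them higher, against 22.8% of all clusters. The members higher in all 6 pairs of arrays numbered 8 (MCM3, MCM7, CDC45, GINS4, POLA2, FEN1, E2F1 and E2F2), with 0 lower in all 6, against 8.36% and 9.97% of all clusters. KD arrays lay above all control arrays for 2 members, E2F1 and POLA2, and below them for 0, against 2.10% and 3.17% of all clusters.

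**Figure D2:**
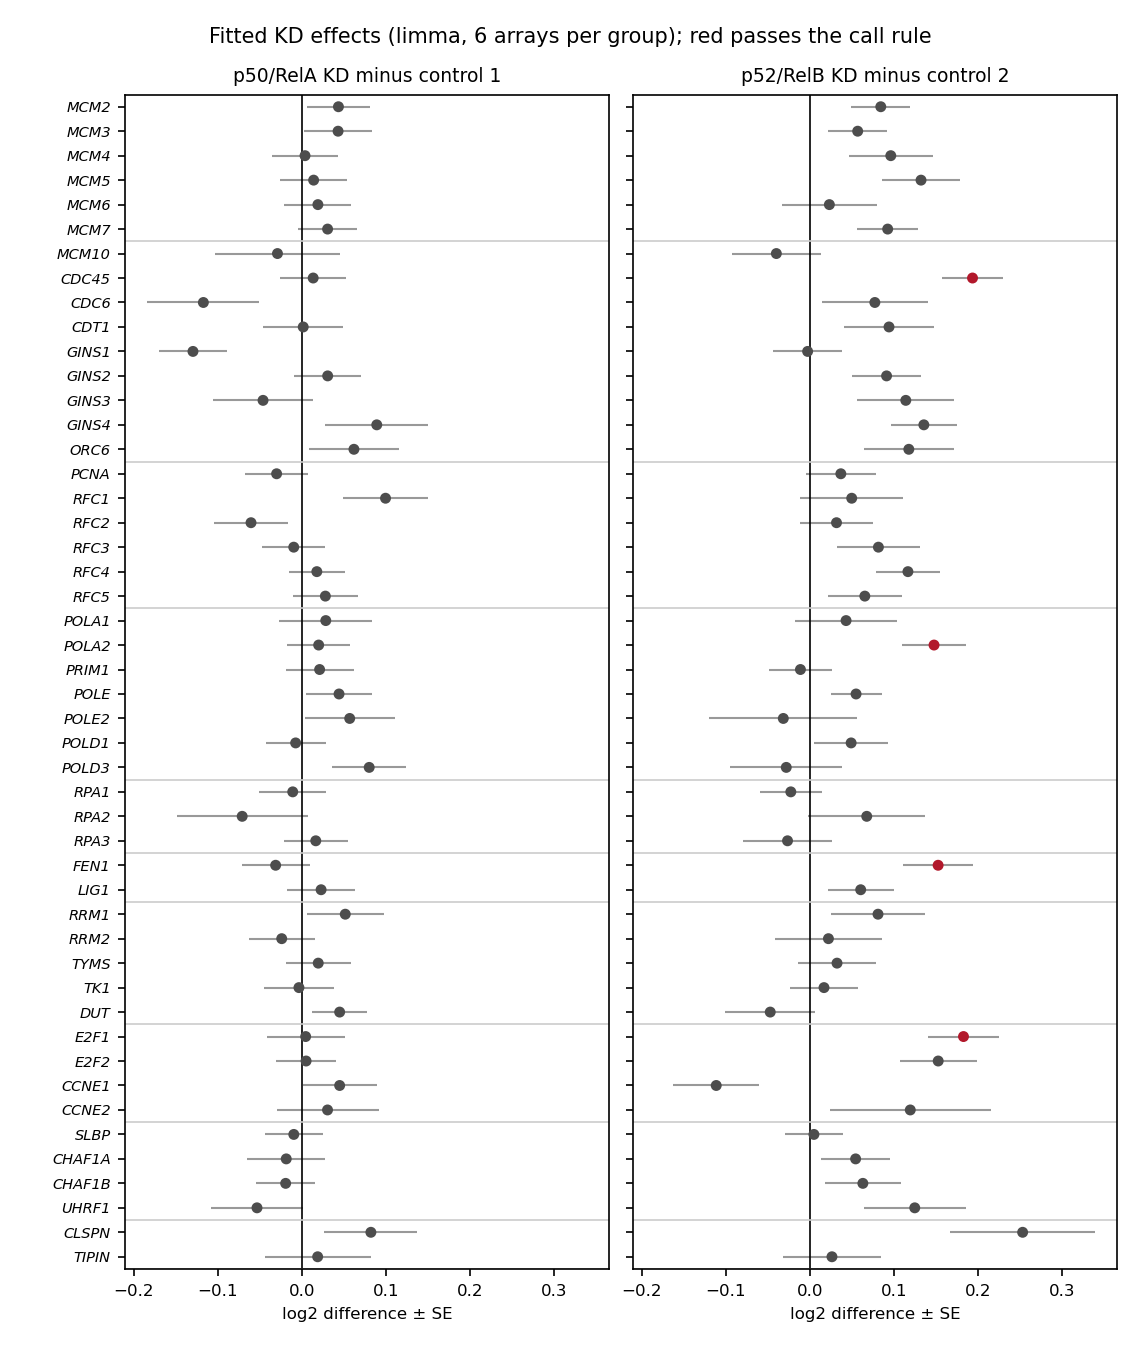
Fitted log2 difference with its SE (horizontal axis) for each of the 48 members, ordered by role with grey lines between roles, after p50/RelA KD (left) and p52/RelB KD (right), with 6 arrays per group. Red marks the members that passed the test, which were 0 on the left and CDC45, POLA2, FEN1 and E2F1 on the right.

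CDC45 makes up the active replicative helicase together with MCM2 to MCM7 and GINS. It ranged from 10.04 to 10.25 (median 10.12) in control 2 and from 10.25 to 10.44 (median 10.33) after p52/RelB KD. The lowest KD array lay level with the highest control array. The rise was 0.19 ± 0.04 on the log2 scale (SE, n = 6 per group, limma adjusted p = 0.00485), with a 95% interval of 8.27% to 20.8% above control. It was positive in every replicate, at 0.23, 0.19 and 0.15.

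E2F1, the E2F family activator of S phase genes, ranged from 9.92 to 10.09 (median 10.03) in control 2 and from 10.12 to 10.32 (median 10.16) after KD, so the groups did not overlap. It rose by 0.18 ± 0.04 (adjusted p = 0.0159), with replicate differences of 0.16, 0.23 and 0.16. POLA2, the regulatory subunit of the polymerase alpha and primase complex, ranged from 9.67 to 9.81 (median 9.73) in control 2 and from 9.83 to 9.95 (median 9.87) after KD, again without overlap. Its rise was 0.15 ± 0.04 (adjusted p = 0.0283).

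FEN1, the flap nuclease of Okazaki fragment processing, ranged from 9.40 to 9.73 (median 9.54) in control 2 and from 9.62 to 9.89 (median 9.69) after KD. The ranges overlapped, although each KD array lay above its paired control array. FEN1 rose by 0.15 ± 0.04 (adjusted p = 0.0352). These fits took the arrays of both siRNA sequences in a replicate as separate samples. With the sequences averaged within each replicate (n = 3 per group) 0 members passed by limma, 9 had an unadjusted p below 0.05, and 3.93% of all clusters passed. The log2 differences were then the same, and the adjusted p was 0.0877 for CDC45, 0.10 for E2F1, 0.15 for FEN1 and 0.16 for POLA2. Over 24 alternative fits the rises of CDC45 and E2F1 passed in 20 and 19, whereas those of POLA2 and FEN1 passed in only 8 and 7, with log2 differences of 0.13 to 0.17 and 0.13 to 0.18. In the p50/RelA experiment the same genes had differences of 0.01 (CDC45), 0.00 (E2F1), 0.02 (POLA2) and -0.03 (FEN1).

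**Figure D3:**
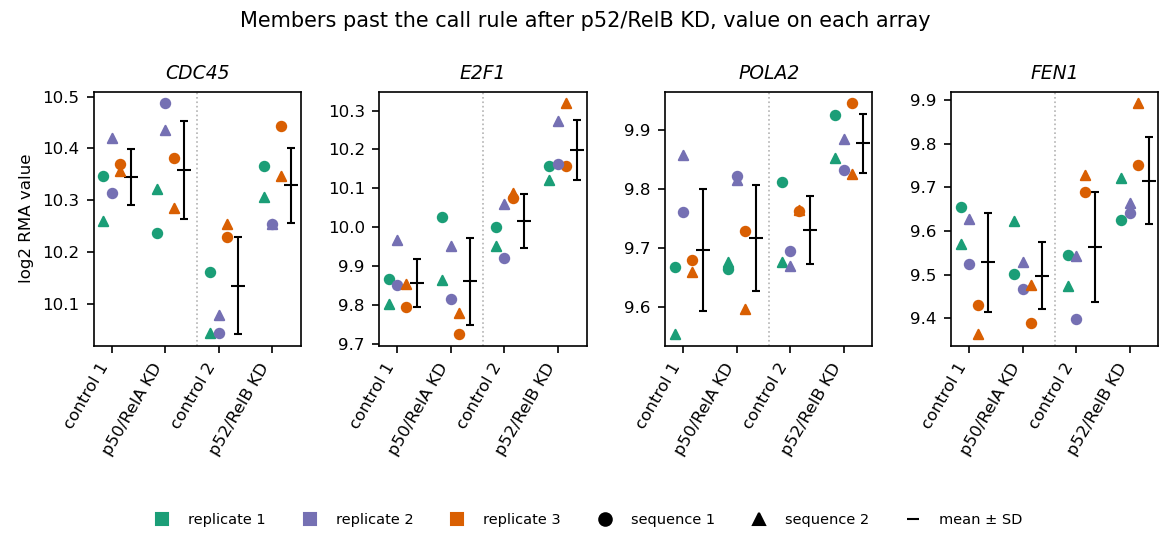
Log2 RMA value (vertical axis) of CDC45, E2F1, POLA2 and FEN1 on each of the 24 arrays by group, with colour for the replicate, circles and triangles for siRNA sequences 1 and 2, and a black bar showing the group mean with its SD (n = 6). The dotted line separates the experiments, whose levels are not comparable; for E2F1 and POLA2 the p52/RelB KD arrays all lie above the control 2 arrays.

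Several members lay just outside the thresholds after p52/RelB KD. GINS4 had a difference of 0.136 ± 0.04 with an adjusted p of 0.0496, under the size minimum of 0.1375, and E2F2 had 0.15 ± 0.05 with an adjusted p of 0.055. RFC4 had 0.12 ± 0.04 (adjusted p = 0.0772). CLSPN had the largest difference of the members, 0.25 ± 0.09, but its adjusted p was 0.0917. Its values ranged from 9.71 to 10.07 (median 9.76) in control 2 and from 9.79 to 10.25 (median 10.16) after KD. The replicates differed, with 0.41, 0.38 and -0.03, and the other CLSPN cluster on the array passed with 0.22 ± 0.05 (adjusted p = 0.0226).

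Among the helicase genes, the p52/RelB differences ran from 0.02 (MCM6) to 0.13 (MCM5, adjusted p = 0.0998), all 6 positive. MCM2 ranged from 10.31 to 10.59 (median 10.40) in control 2 and from 10.44 to 10.58 (median 10.51) after KD, with a difference of 0.08 ± 0.04 (adjusted p = 0.17). Of the 9 licensing and firing genes, 7 had positive differences. CDC6 had 0.08 ± 0.06, CDT1 0.09 ± 0.05 and ORC6, the origin recognition subunit, 0.12 ± 0.05, while GINS1 had 0.00 and MCM10, a factor that helps start the helicase, had -0.04 ± 0.05. MCM10 was higher in only 1 of 6 pairs. The 6 clamp and clamp loader genes were between 0.03 (RFC2) and 0.12 (RFC4), with PCNA at 0.04 ± 0.04.

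The polymerase and primase genes other than POLA2 had differences of -0.03 to 0.06, and the 3 RPA subunits -0.03 to 0.07. Nucleotide supply showed little difference, with 0.02 ± 0.06 for RRM2, 0.03 ± 0.05 for TYMS, 0.02 for the thymidine kinase TK1, 0.08 for RRM1 and -0.05 ± 0.05 for the dUTP hydrolase DUT. None of the 5 passed the test. DUT ranged from 9.78 to 9.87 in control 2 and from 9.55 to 9.96 after KD, a wider spread on both sides of the controls.

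The cyclin E genes went apart. CCNE1 ranged from 10.06 to 10.16 (median 10.16) in control 2 and from 9.79 to 10.21 (median 10.04) after p52/RelB KD, with the lowest difference of the members, -0.11 ± 0.05 (adjusted p = 0.22). CCNE2 had a difference of 0.12 ± 0.10 (adjusted p = 0.50), with KD arrays from 9.04 to 9.75 around control arrays of 9.17 to 9.47. Neither passed. In chromatin supply, the differences were 0.00 ± 0.03 for SLBP, 0.05 ± 0.04 for CHAF1A, 0.06 for CHAF1B and 0.12 for UHRF1, the partner of maintenance DNA methylation. The other UHRF1 cluster on the array had 0.06 ± 0.06 (limma adjusted p = 0.58). TIPIN, which protects the fork with Claspin, had 0.03.

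**Figure D4:**
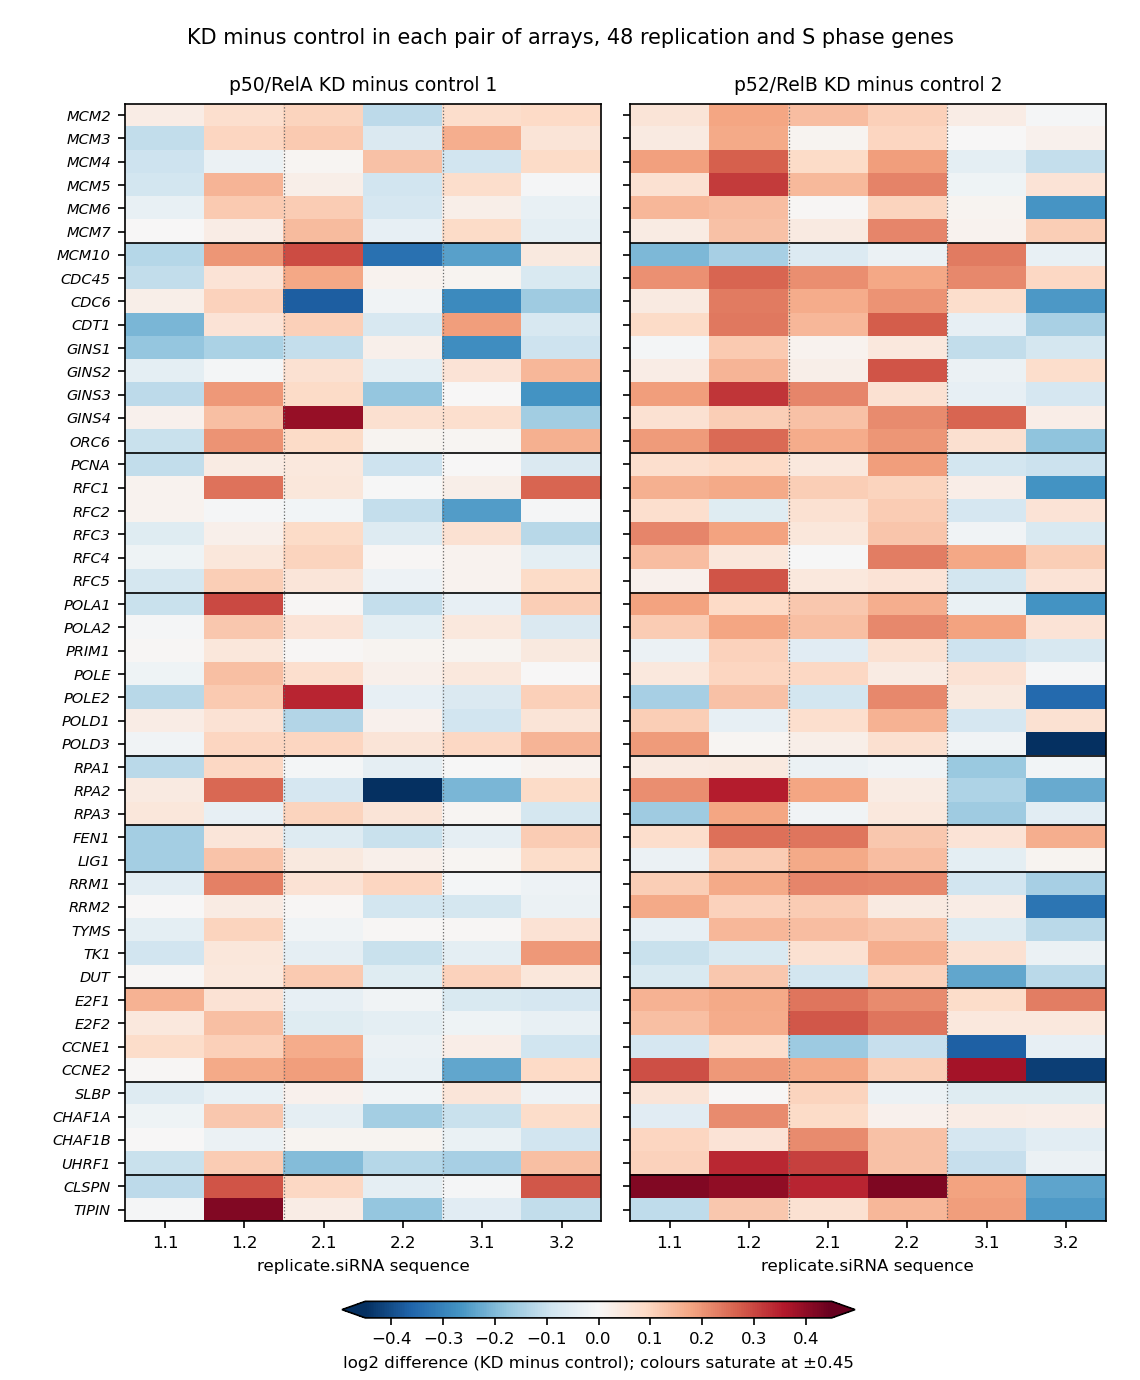
Log2 difference of each KD array from the control array of the same replicate and siRNA sequence number (colour; red is higher in KD), for the 48 members (rows, with black lines between roles) and the 6 pairs (columns) of each experiment. After p52/RelB KD the 4 columns of replicates 1 and 2 are mostly red, with 36 to 44 of 48 members higher, and those of replicate 3 are not, with 23 and 16.

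The p52/RelB result differed between replicates. In replicates 1 and 2 the mean difference of the 48 members was 0.11 and 0.12, and 45 of 48 were higher in each, where 53.6% and 51.6% of all clusters were higher. In replicate 3 the mean was -0.03 and 16 of 48 were higher, beside 55.4% of all clusters. The controls differed between replicates too. The mean log2 value of the 48 members on the control 2 arrays was 10.07 in replicate 3 and 9.89 to 9.96 in replicates 1 and 2. On the p52/RelB KD arrays it was 10.07 and 9.99 in replicate 3 and 9.99 to 10.07 in replicates 1 and 2. The part of the control levels in the replicate difference was not tested. Replicates 1 and 2 were scanned in 1 batch and replicate 3 in another, so replicate and scan batch cannot be told apart for this contrast. Without replicate 3, which is also the value within the batch of replicates 1 and 2, 17 members rose and 0 fell. Of all clusters, 12.7% passed there in either direction. The members that rose were CDC45, E2F1, POLA2 and FEN1 with CCNE2, CDC6, CDT1, CLSPN, E2F2, GINS3, MCM4, MCM5, ORC6, POLA1, RPA2, RRM1 and UHRF1. Within the batch of replicate 3, with 2 arrays per group, 0 members and 0 of all clusters passed, and the member median was -0.05. Without replicate 1 or without replicate 2, 0 members passed by limma, with 8 and 5 at an unadjusted p below 0.05, where 2.76% and 2.90% of all clusters passed.

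The array that stood apart belongs to replicate 3. Without it, 11 members rose, where 14.4% of all clusters passed in either direction. The members that rose were CDC45, E2F1, POLA2 and FEN1 with CCNE2, CDC6, CLSPN, E2F2, GINS3, GINS4 and ORC6. CLSPN then had a difference of 0.35 (adjusted p = 5.91e-05), CCNE2 0.23 (adjusted p = 0.000946) and CDC6 0.14 (adjusted p = 0.0182), where all arrays gave 0.25, 0.12 and 0.08. E2F2, GINS3, GINS4 and ORC6 had differences of 0.15 to 0.17. When arrays were weighted by their quality in the limma fit, 13 members rose, where 14.0% of all clusters passed in either direction. CDC45, E2F1, POLA2 and FEN1 were among them in both settings. In replicate 3 itself, the pair without that array (sequence 1) had a mean member difference of 0.01 with 23 of 48 higher, and the pair with it had -0.08 with 16 of 48 higher.

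A test of the batch difference itself, added after seeing the data, set the KD effect in replicates 1 and 2 against that in replicate 3. Of the 48 members 0 passed (0.00621% of all clusters did), and 14 had an unadjusted p below 0.05, all with the larger effect in replicates 1 and 2, against 12.2% of all clusters. The median of this difference was 0.14 over the members and -0.01 over all clusters, and 44 of 48 were positive. CLSPN had the largest batch difference, 0.42 ± 0.14 (limma adjusted p = 0.40). RPA2 had 0.38 ± 0.10 and RRM1 0.30 ± 0.08 (adjusted p = 0.39 for both). CDC45, E2F1, POLA2 and FEN1 had batch differences of 0.04 to 0.06 with SEs of 0.08 to 0.09. These genes were selected for passing over all 3 replicates. That selection favours a like effect in each, so their small batch differences are no separate support. Without the outlying array the median batch difference of the members was 0.13. CLSPN then had 0.19 (limma adjusted p = 0.42), and RPA2 had 0.29 and RRM1 0.21 (adjusted p = 0.40 for both). The members that rose had 0.01 (CDC45), 0.12 (E2F1), -0.02 (POLA2) and 0.13 (FEN1).

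**Figure D5:**
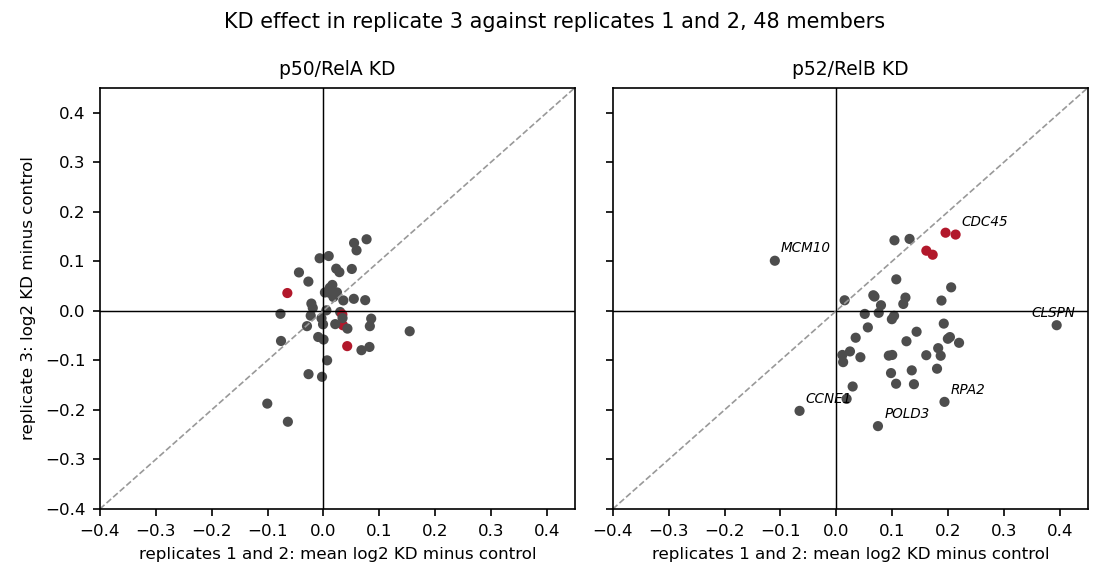
Log2 KD minus control of each member in replicate 3 (vertical axis) against its mean in replicates 1 and 2 (horizontal axis), for p50/RelA KD (left) and p52/RelB KD (right); the dashed line marks equal values and red marks CDC45, E2F1, POLA2 and FEN1. After p52/RelB KD 31 of the 48 points lie in the lower right, higher in replicates 1 and 2 but lower in replicate 3, and the 4 red points are higher in both. The red points were selected over all 3 replicates, which favours that position.

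Across members, 31 were higher in replicates 1 and 2 and lower in replicate 3, 15 were higher in both, 1 was lower in both (CCNE1) and 1 was higher only in replicate 3 (MCM10). For p50/RelA KD, whose replicates were each scanned in a batch of their own, the counts were 14, 17, 11 and 6. The mean member difference there was 0.03, 0.00 and 0.00 in replicates 1, 2 and 3.

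The KD effects of both experiments were compared in 1 fit over the 24 arrays. CDC45 was the single member whose effects differed, by 0.18 ± 0.05 (p52/RelB minus p50/RelA, adjusted p = 0.0455), against 4.35% of the 14647 clusters tested. Unadjusted, 9 members had a p below 0.05, 8 of them with the higher effect in p52/RelB KD, against 16.7% of all clusters. CDC45 no longer passed when each replicate was left out in turn, with adjusted p of 0.41, 0.12 and 0.16 without replicates 1, 2 and 3, while CLSPN passed without replicate 3. Without the outlying array alone, CDC45 passed with a difference of 0.20 (adjusted p = 0.0172) and CLSPN with 0.26 (adjusted p = 0.0284). For E2F1, POLA2 and FEN1 the difference between the KD effects was 0.18, 0.13 and 0.18 and did not pass (adjusted p = 0.12, 0.18 and 0.0654). The median difference of the members was 0.06, beside 0.01 over all clusters.

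No difference between the siRNA sequences was detected at this number of arrays. Each KD sequence was set against the non-targeting siRNA of the same number. The comparison therefore also holds any difference between the non-targeting siRNAs. Of the 48 members, 0 differed between sequence 2 and sequence 1 in either KD by limma, and 0 had an unadjusted p below 0.05, where 0% of all clusters passed and 3.75% (p50/RelA) and 4.02% (p52/RelB) were below the unadjusted limit. Member differences between sequences ran from -0.15 to 0.19 in p50/RelA KD and from -0.32 to 0.18 in p52/RelB KD. With sequence 1 alone, 3 members rose in p52/RelB KD (CCNE2, CDC45 and CLSPN), where 7.32% of all clusters passed in either direction. With sequence 2 alone 0 did by limma and 1 had an unadjusted p below 0.05, where 0.0311% of all clusters passed.

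Related genes outside the 48 were read from lists of other replication, mitosis and G1 genes. Of 55 other replication and S phase genes, 8 rose and 1 fell after p52/RelB KD, with a median of 0.06, where 3.93% of all clusters rose and 5.75% fell. After p50/RelA KD 0 rose and 1 fell, where 1.07% of all clusters passed. The p52/RelB rises with the smallest adjusted p were those of ASF1B, a histone chaperone (0.24 ± 0.05, adjusted p = 0.00628), RECQL4, a helicase (0.16 ± 0.04), E2F7, an E2F family repressor (0.27 ± 0.06), and the kinase CDK2 (0.19 ± 0.05). The fall was that of TFDP2, which encodes a dimer partner of the E2F proteins. In p52/RelB KD its log2 value fell by 0.51 ± 0.06 (adjusted p = 0.000152). In p50/RelA KD TFDP2 fell by 0.15 ± 0.03 (adjusted p = 0.0417). It was the single gene of these lists, apart from CDKN1A, that passed in both experiments.

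CDKN1A encodes p21, an inhibitor of the cyclin-dependent kinases that act at S phase entry. After p50/RelA KD, in which none of the 48 genes passed, it fell by 0.33 ± 0.04 (adjusted p = 0.000626). After p52/RelB KD it fell by 0.27 ± 0.05 (adjusted p = 0.00674). Of 11 G1 genes, 2 rose (CCND3 and CDKN2B) and 2 fell (CDKN1A and CDKN1B) after p52/RelB KD, against 9.68% of all clusters that passed. Of 29 G2/M and mitosis genes, 2 rose (BIRC5 and UBE2C) and 1 fell (CCNB2), a share near the same 9.68%, with a median of 0.02. After p50/RelA KD 0 of these passed, against 1.07% of all clusters, with a median of 0.07 and 28 of 29 differences positive. Of all clusters, 50.7% had a positive difference after that KD. The mean level of the G2/M genes on the outlying array was 9.93, below the 9.97 to 10.20 of the other p52/RelB KD arrays. The control 2 arrays of replicate 3 had 10.21 and 10.15, and those of replicates 1 and 2 had 9.89 to 9.99. The part of these levels in the member differences was not tested.

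The promoters of the members were searched for E2F words (TTTCCCGC, TTTGGCGC, TTTCGCGC and TTTGCCGC), the CCAAT box (CCAAT) and the NF-κB consensus, on both strands and counting overlapping matches, in the 250 bases before and 50 bases after the RefSeq start (build GRCh38.p14). Promoters were matched for 41 of the 48 genes. An E2F word was found in 21 of 41 (51.2%), beside 4.44% of 15843 promoters of protein-coding genes. A CCAAT box was found in 23 (56.1%, beside 36.4%) and an NF-κB consensus in 4 (9.76%, beside 6.36%). Members with and without an E2F word had median p52/RelB differences of 0.08 and 0.04. Of the 4 members that rose, E2F1 and POLA2 held an E2F word, CDC45 and E2F1 a CCAAT box, and none an NF-κB consensus; a match is a description of the letters, not a site shown to be bound.

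The stretches that hold the E2F words (capitals) are shown for the members with one among those that rose, followed by the 250 bases before the CDC45 start with its 4 CCAAT boxes in capitals.
E2F1, chr20:33686395-33686434, minus strand: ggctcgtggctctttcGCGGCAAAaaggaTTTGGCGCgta
POLA2, chr11:65261893-65261932, plus strand: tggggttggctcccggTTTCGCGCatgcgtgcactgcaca
CDC45, chr22:19479670-19479919, plus strand: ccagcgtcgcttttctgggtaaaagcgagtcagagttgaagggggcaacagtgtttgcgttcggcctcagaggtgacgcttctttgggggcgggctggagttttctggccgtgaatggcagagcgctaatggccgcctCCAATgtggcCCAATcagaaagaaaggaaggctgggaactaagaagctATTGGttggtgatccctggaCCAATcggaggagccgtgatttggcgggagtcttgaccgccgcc
The E2F1 words begin 33 and 20 bases before the start, on opposite strands, and the POLA2 word 53 bases before it.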

How the data were processed

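The authors hybridized total RNA of 24 L1236 samples to Affymetrix Human Gene 1.0 ST arrays and deposited log2 expression values made by RMA, which corrects background, quantile-normalizes and summarizes probes (version not named). RMA understates large differences and carries no detection call. Precision is set by the array number, and the median SE of a member's KD effect was 0.0404 in experiment 1 and 0.0458 in experiment 2. The table held 33297 clusters, 19460 with 1 symbol. Each KD was compared with its own control by limma 3.58.1 (lmFit, eBayes) in R 4.3.3, pooling siRNA sequences, over clusters with 1 symbol at 6 or more in over 50% of the 12 arrays, and p-values were Benjamini-Hochberg adjusted over these (14672 and 16101). The replicate was a block, because deviations of control and KD means of the same replicate correlated at 0.195 to 0.574, above 0.1 in every case. The study's thresholds were kept, with limma in place of its t-test. The scripts were tested on simulated data. The members and lists were chosen with earlier results of these data known. Genes were mostly named by rule: members that passed, the 3 highest and 3 lowest differences per experiment and a fixed set of 10. Of each other list, up to 5 passing genes were named. Role groups under 7 genes were named in full or given by range. Members near the thresholds, and some in the batch test, were also named. Filter, block, normalization, weights, thresholds and left-out arrays were varied.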

Additional observations from a re-analysis of the deposited data

Results flagged for a closer look

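Among the members, 4 values lay far from the other 5 arrays of their group. MCM2 (10.5966, next 10.4558) and RPA2 (8.6441, next 8.2818) were highest on the control 1 array of replicate 2, sequence 2. CCNE1 was lowest on the control 2 array of replicate 3, sequence 2 (10.0647, next 10.1306), and CDC6 on the p52/RelB KD array of replicate 3, sequence 2 (10.2840, next 10.6062), the array that stood apart. Chance puts about 1 in 20 groups in this class, and 64 groups of the named members were examined. The KD effect on CDC45 differed between the experiments by 0.1800 on the log2 scale (limma adjusted p = 0.0455), and the call did not hold when any of the 3 replicates was left out.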

How the results depend on the processing

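For p50/RelA KD, 0 members passed in all 33 alternatives, those that left out a replicate or an array included, and the member median of 0.0173 became -0.0019 with siRNA sequence 1 alone and -0.0044 within scan batch 3. For p52/RelB KD, the 4 members that passed became 2 with no replicate block and 2 with arrays centred on their median, where 5.47% and 8.12% of all clusters passed. They became 0 with siRNA sequence 2 alone (0.0311% of all clusters), 0 with sequences averaged within each replicate (3.93%, or 632 clusters) and 0 within scan batch 4, but 13 with array weights (14.0%) and 17 within scan batch 5 (12.7%). The count ranged from 0 to 17 when a replicate was left out and from 2 to 11 when an array was left out. The member median of 0.0618 was -0.0478 within scan batch 4 and kept its sign in the other alternatives. Between the KD effects, the 1 member that passed became 0 with no replicate block, 0 with no filter on low values and 3 with array weights. That count ranged from 0 to 1 without a replicate and from 0 to 2 without an array. The siRNA sequence comparisons gave 0 members in all 5 alternatives each, and the scan batch comparison, chosen after seeing the data, 0 without the outlying array. No named gene that passed changed sign. The causes of these shifts were not tested. A lone sequence or replicate leaves few arrays, and within scan batch 4, with 2 arrays per group, 0 of all clusters passed. All 48 members passed the low-value limit, but RMA values carry no signal over background.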
